A study of Mus musculus with 12 samples.

Results

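The comparison set spleens of ovalbumin-injected mice against spleens of saline-injected mice at day 28, and its members were chosen by sample title: 4 OVA arrays and 2 control arrays, 6 of the 12 arrays of the series. All mice were female BALB/c mice, 6 weeks old. The treated mice received 3 intraperitoneal injections of OVA (ovalbumin, an egg-white protein used as an experimental allergen), 2 mg per kg of body weight each, on day 1, day 3 and day 5. The controls received normal saline in its place. Total RNA of the snap-frozen spleens was labelled with a single dye and hybridised to Agilent arrays. The other 6 arrays hold the same treatments at day 14 and were used for the shared estimate of spread and for the comparison between days. The labels name no adjuvant and no later challenge, and they do not state whether each array holds 1 mouse or a pool. All OVA arrays of day 28 lay on 1 slide and all controls on another, so treatment and slide cannot be told apart in anything that follows. The p-values measure only the spread between these arrays, which may be technical in part.

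In allergic sensitisation, dendritic cells present the allergen to T cells, which help B cells to switch to IgE, the antibody that arms mast cells. The spleen is where much of the response to antigen delivered into the peritoneal cavity takes place, and it holds B cells, T cells, myeloid cells and red cell precursors side by side. Long non-coding RNAs, which make up much of this array, are transcripts without a long reading frame, some of which act on neighbouring genes or carry microRNAs. The comparison asks which of them, and which coding genes, stand at another level in the OVA spleens after the last injection has long passed.

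Levels are given as the log2 signal of a probe minus the 75th percentile of its array, so 0 marks a bright probe and dim probes lie near -4. Differences are OVA minus control on the log2 scale, with the standard error (SE) of the fit, and each adjusted p comes from limma with Benjamini-Hochberg adjustment over all 72515 features tested. A feature is called where that adjusted p is under 0.05. The 75th percentile of the raw signal was 316.4 and 325.9 units on the control arrays and 483.8 to 549.3 on the OVA arrays, so every OVA array was brighter before scaling. The share of spots well above background was alike, from 76.7% to 76.9% in controls and from 75.3% to 78.4% in OVA. The 8 spike-in control probes used differed between the groups by -0.41 to 0.51. Probe names of this array pair few features with protein-coding genes. The 17 gene lists used cover immune pathways, cell types, proliferation, imprinted genes and host genes of small nucleolar RNAs. Among their 414 genes, Zeb2 and Wt1 were the coding genes with a named probe. Mx2 had a probe too, but it is that of a non-coding RefSeq transcript. The spleen label could therefore not be checked against its defining markers. In whole-spleen RNA, a change in the number of cells of a type and a change in RNA per cell cannot be told apart.

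At day 28 the spleens of OVA mice and of saline mice differed in 10191 features, 14.1% of those tested. Of these, 5395 (7.44%) were higher and 4796 (6.61%) were lower in OVA. The changes were modest: called features had a median difference of 0.64 where higher and -0.51 where lower. A difference of at least 2-fold was reached by 860 called features, and it was far more often upward, with 769 higher and 91 lower. That imbalance was also present among probes well above background on all 6 arrays (598 higher, 20 lower). The OVA and control arrays of day 28 did not overlap in 42.2% of all features, and the OVA arrays lay outside all 4 controls of both days in 28.7%. Of the called features, 10183 had no overlap between the groups of day 28 and 9115 had none with the 4 controls.

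Brightness mattered for what was called. In the dimmest quintile of features 6.46% were called, in the next-brightest quintile 19.6% and in the brightest 19.1%. Higher calls made up 62.2% of the calls in the next-dimmest quintile and 46.2% in the brightest. The dimmest quintile held 79 of the 91 features lower by 2-fold or more, while features higher by that factor were spread from 205 in the dimmest to 92 in the brightest quintile.

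**Figure D1:**
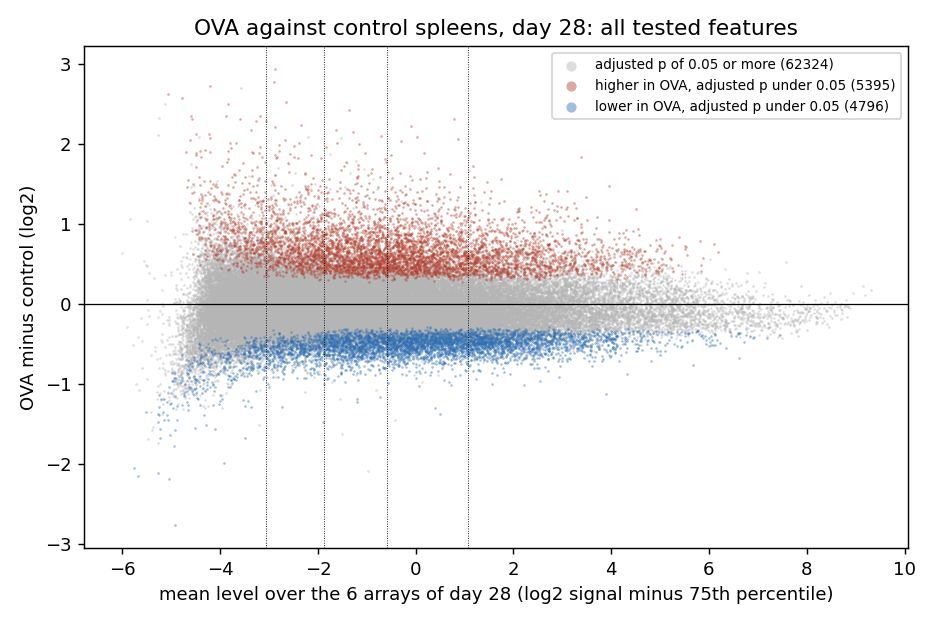
Each point is a tested feature, with its mean level over the 6 arrays of day 28 (log2 signal minus 75th percentile) on the horizontal axis and the OVA minus control difference (log2) on the vertical axis; dotted lines separate quintiles. The 5395 features called higher reach further from 0 (median 0.64) than the 4796 called lower (median -0.51).

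Names could be given to 3407 of the tested features, 2514 of them through RefSeq accessions and 877 through RIKEN cDNA clones filed under a gene, mostly coding genes. Of the named features 188 (5.52%) were higher and 138 (4.05%) lower, 9.57% in all. The share among RIKEN clones of protein-coding genes was larger, with 34 higher and 46 lower of 534 (15.0%), and their probes were also brighter, with a median of -1.18 against -2.25 for all named features. A RIKEN clone filed under a gene can be an intronic, antisense or alternative transcript. Whether its probe reads the coding mRNA, and on which strand, is not known here. In what follows "the X clone" means such a probe.

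The rule for naming genes took called features well above background on every day 28 array and without overlap. Of 102 called features with an ordinary symbol, 100 met it. Among these 100, the 10 highest differences belonged to Dynlrb1, Dleu2, C1galt1, Top2b, Rnf139, Rnf207, Fra10ac1, Zfp783, Zfp410 and Cyp2d13. They span 1.9-fold to 2.38-fold and form no single pathway. Among their products are a dynein motor light chain, a glycosyltransferase, a DNA topoisomerase, RING-type ubiquitin ligases and a zinc-finger protein. Beside them stand a microRNA host transcript, a cytochrome P450 pseudogene and Zfp783, filed as a long non-coding RNA. All 10 were higher on every OVA array than on all 4 controls. For the day 28 controls the choice of the genes required this. Of the 10191 called features, 9115 had no overlap with the 4 controls, and 28.7% of all features had none in one direction or the other. It is therefore no result about these 10 genes.

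Dleu2, a long non-coding RNA deleted in many chronic lymphocytic leukaemias, carries in its introns the microRNAs miR-15a and miR-16, which restrain B cell growth by lowering cell cycle and survival proteins. On the Dleu2 clone the controls stood at -0.58 and -0.54 and the OVA arrays at 0.63, 0.94, 0.38 and 0.52. All OVA arrays were above both controls, by 1.18 ± 0.17 (SE), a 2.27-fold difference (adjusted p = 0.00298). A RefSeq probe of Dleu2 did not show it: controls stood at -3.89 and -3.11, OVA arrays at -3.74, -3.83, -3.80 and -3.33, with a difference of -0.17 ± 0.44 (adjusted p = 0.831). On this second probe the groups overlapped and the controls lay far apart, near the dim end of the array. Which parts of the locus the probes read is not known here, and the direction of Dleu2 as a whole is not settled by them.

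The microRNAs inside Dleu2 were not measured by this array, and their sequences are shown to say what the locus carries. They come from RefSeq (GRCm38.p6) and lie on the minus strand, miR-15a-5p at chr14:61632075-61632096 and miR-16-5p at chr14:61631936-61631957. Capitals mark the seed, bases 2 to 8 from the 5′ end, which pairs with target mRNAs.
mmu-miR-15a-5p: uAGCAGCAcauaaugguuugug
mmu-miR-16-5p: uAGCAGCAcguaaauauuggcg
mmu-miR-15a-3p: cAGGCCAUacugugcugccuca
mmu-miR-16-1-3p: cCAGUAUUgacugugcugcuga
The 5p strands share one seed and differ further along, whereas the 3p strands have a seed each.

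The Dynlrb1 clone, from the gene of a light chain of the dynein motor, was the highest of the 10. Its controls stood at -3.24 and -3.66 and its OVA arrays at -2.29, -2.20, -2.23 and -2.09 (1.25 ± 0.17, adjusted p = 0.00187). The OVA arrays lay close together, all above the controls, although the probe was dim. C1galt1 encodes the galactosyltransferase that builds the core 1 O-glycan carried by mucins and by many lymphocyte surface proteins. Its clone stood at 0.58 ± 0.05 (SD, n = 2) in controls and 1.75 ± 0.08 (SD, n = 4) in OVA, 2.26-fold higher (adjusted p = 0.00211), with little spread in either group. Rnf207, a RING-finger gene best known from heart muscle, had a bright clone. Its controls stood at 3.27 and 3.22 and its OVA arrays at 4.49, 4.63, 4.18 and 3.93 (1.06 ± 0.17, adjusted p = 0.00407); the OVA arrays were uneven and still clear of the controls. The Rnf139 clone, from a ubiquitin ligase gene of the endoplasmic reticulum, stood at 0.87 and 1.26 in controls and 2.23, 2.05, 1.97 and 2.32 in OVA (2.11-fold, adjusted p = 0.00941).

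Top2b encodes a topoisomerase that relieves DNA strain in transcribed genes, and its clone was higher by 1.11 ± 0.27 (adjusted p = 0.021). The Fra10ac1 clone was higher by 1.03 ± 0.21 (adjusted p = 0.0114). Zfp783 is filed as a long non-coding RNA, and Zfp410 is a zinc-finger gene of which a non-coding transcript is on the array. The RefSeq probes of Zfp783, Zfp410 and the pseudogene Cyp2d13 were higher by 0.94, 0.94 and 0.93 (adjusted p = 0.0361, 0.0454 and 0.0317). These last probes were dim, and the controls of Zfp410, at -4.56 and -3.65, lay far apart. None of the 3 kept its call with normexp background correction. Cyp2d13 belongs to a large gene family, and whether its probe also reads related genes was not checked.

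The 10 lowest differences among the same 100 features were smaller, from -0.95 to -0.66. Rasal3, Pik3cd and Map3k2 encode a Ras-inactivating protein of blood cells, the delta catalytic subunit of PI3-kinase, which relays B and T cell receptor signals, and a kinase upstream of MAP kinases. Cry2 encodes a repressor of the circadian clock, Dctn2 the dynamitin subunit of dynactin, Snx6 a sorting nexin of endosomes, Cntn5 a neuronal adhesion protein and Hhipl1 a relative of the hedgehog-interacting protein. The set was completed by the pseudogene Slc2a4rg-ps and by Prr33. No theme was tested for enrichment, and these descriptions come from known roles of the genes only.

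On the Pik3cd clone the controls stood at 2.30 and 2.44 and the OVA arrays at 1.68, 1.63, 1.64 and 1.60. The OVA arrays were nearly identical and all below the controls, by 1.66-fold (-0.73 ± 0.11, adjusted p = 0.00342). The Rasal3 clone stood at 0.99 and 1.44 in controls and at 0.17, 0.30, 0.18 and 0.42 in OVA, without overlap (-0.95 ± 0.18, adjusted p = 0.00935). Its controls differed from each other by nearly as much as the nearest OVA array from the nearest control. The Cry2 clone stood at -0.04 and 0.03 in controls and at -0.92, -0.74, -0.64 and -0.47 in OVA (-0.69 ± 0.13, adjusted p = 0.00936), again with every OVA array lower. The Map3k2 clone was lower by 1.58-fold (adjusted p = 0.0269), with OVA arrays from -2.90 to -2.43 and controls at -1.80 and -2.18.

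Slc2a4rg-ps, a pseudogene whose nearest coding gene is the dendritic cell factor gene Zbtb46, stood at 1.78 ± 0.26 (SD, n = 2) in controls and 1.08 ± 0.13 (SD, n = 4) in OVA (adjusted p = 0.0132). Prr33, beside Lsp1, an actin-binding protein gene of leukocytes, stood at 1.99 ± 0.20 (SD, n = 2) in controls and 1.33 ± 0.14 (SD, n = 4) in OVA (adjusted p = 0.0282). The clones of Dctn2 and Snx6, both genes of transport within the cell, were lower by 1.6-fold and 1.58-fold (adjusted p = 0.0202 and 0.0113). Those of Hhipl1 and Cntn5 were lower by 1.91-fold and 1.84-fold (adjusted p = 0.0235 and 0.0424). The Hhipl1 call was lost against all 4 controls. That of Cntn5 was lost, among other settings, with only the 6 arrays of day 28 and with array weights. Scaled by the median deviation of the spike-ins, Dctn2, Map3k2 and Prr33 lost their call. For Cntn5 the OVA arrays spread from -4.51 to -3.44, more widely than for any other gene of the set.

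**Figure D2:**
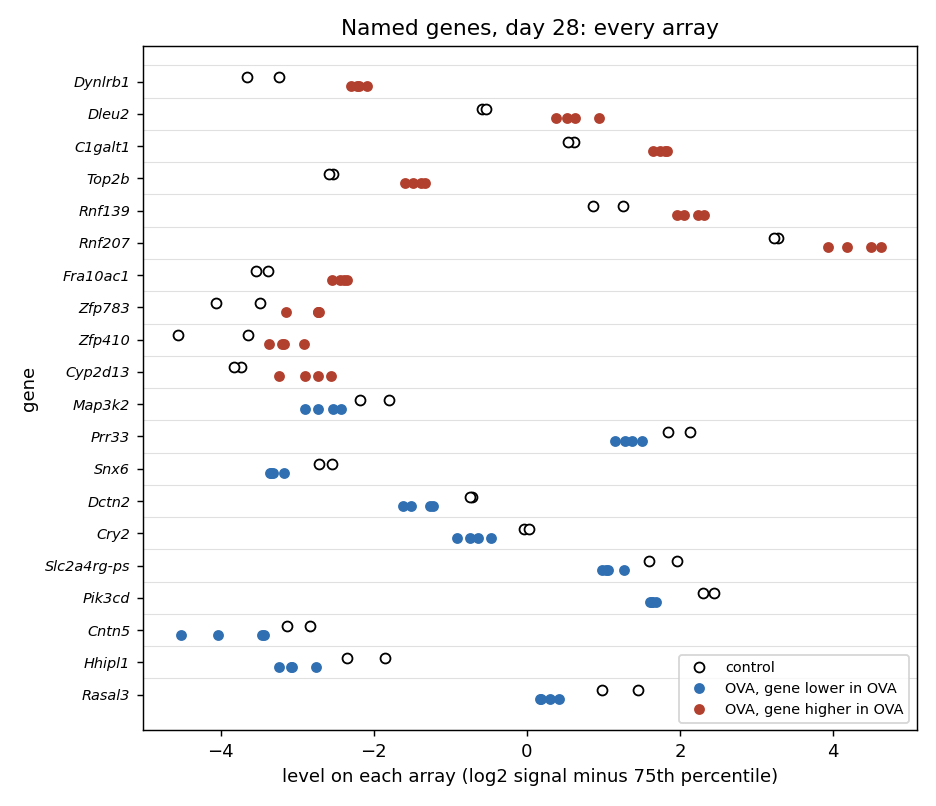
Level of each of the 20 genes with an ordinary symbol (rows) on every array of day 28, as log2 signal minus the 75th percentile; open circles are the 2 controls, filled circles the 4 OVA arrays, red for genes higher and blue for genes lower in OVA. No OVA array overlaps a control, which the choice of the genes required, and the controls of Zfp410 and Zfp783 lie furthest apart.

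With 2 controls, 1 array carries much of each comparison. Without control 1, the calls of 6 of the 10 higher genes were lost (Cyp2d13, Fra10ac1, Rnf139, Top2b, Zfp410 and Zfp783), with adjusted p from 0.0825 to 0.386. Without control 2, the calls of Cyp2d13, Fra10ac1, Top2b and Zfp783 were lost, with adjusted p from 0.0646 to 0.16. Of the 10 lower genes, 5 lost the call without control 1 (Cntn5, Dctn2, Map3k2, Prr33 and Snx6, adjusted p from 0.0654 to 0.212), and 9, all but Pik3cd, without control 2 (0.0544 to 0.237). The differences kept their sign in each case. The Dynlrb1, Dleu2, C1galt1, Rnf207 and Pik3cd clones kept their call in every one of the 25 or 26 alternative settings that tested them.

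Genes known only by a clone-type symbol are mostly long non-coding RNAs without an assigned role. Of 2676 such features 224 were called, against 102 of 731 with an ordinary symbol. The rule for naming genes was met by 198 of the 224, and the 5 at each end of these 198 are given here. The highest was 0610039K10Rik, beside Serinc3, a gene of a membrane protein, with controls at 0.23 and 0.02 and OVA arrays at 1.78, 1.67, 1.87 and 1.56. All OVA arrays were well above both controls, 3.03-fold on average (adjusted p = 0.000259). Gm34128, beside the cytoskeletal gene Septin9, stood at 0.66 and 0.74 in controls and at 2.39, 2.42, 2.24 and 2.02 in OVA (2.96-fold, adjusted p = 0.000972). Gm35430 was higher by 1.33 ± 0.19, Gm36007, beside Lratd1, by 1.25 ± 0.20, and the pseudogene Gm2518, beside Taf6l, by 1.24 ± 0.14 (adjusted p = 0.0025, 0.00366 and 0.00089). These 5 kept the call without each of the day 28 arrays in turn.

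The lowest clone-type genes under this rule were 1700020G17Rik, beside the cell cycle factor gene E2f7, and 4930525C09Rik, beside Ccer1. The 1700020G17Rik probe stood at -2.63 and -2.37 in controls and at -3.44, -3.47, -3.92 and -4.32 in OVA (-1.29 ± 0.30, adjusted p = 0.0191). The 4930525C09Rik probe stood at -2.46 and -2.85 and at -3.49, -3.62, -4.06 and -4.53 (-1.27 ± 0.30, adjusted p = 0.0206). In both the OVA arrays were all below the controls and spread widely, near the dim end of the array. 1700025N23Rik, beside the thromboxane synthase gene Tbxas1, Gm35715, beside Ccdc12, and Gm42351, beside Pex14, were lower by 1.73-fold, 1.7-fold and 1.67-fold (adjusted p = 0.00329, 0.00493 and 0.0101). Without control 1 the calls of 1700020G17Rik, 4930525C09Rik and Gm42351 were lost (adjusted p from 0.0502 to 0.145), and the same 3 were lost without control 2 (0.0757 to 0.13).

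The classes of probe differed in how often and in which direction they were called, although members of a class are not replicates and no test was made. Catalogue probes were called most often, 2669 higher and 2162 lower of 31719 (15.2%). RIKEN clones were called in 14.4% of 11990 and, unlike the rest, more often lower (959) than higher (764). NONCODE transcripts, a catalogue of non-coding RNAs, gave 1483 higher and 1349 lower of 20457 (13.8%). RefSeq non-coding transcripts gave 426 and 298 of 7568 (9.57%), and Ensembl transcripts 37 and 18 of 560 (9.82%). Ultraconserved elements, stretches of genome identical between distant mammals, gave 16 higher and 10 lower of 205 transcribed probes (12.7%). The classes differ in brightness as well, with median levels of -0.23 for catalogue and -2.38 for RefSeq probes, and how much of the order follows from that was not tested.

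**Figure D3:**
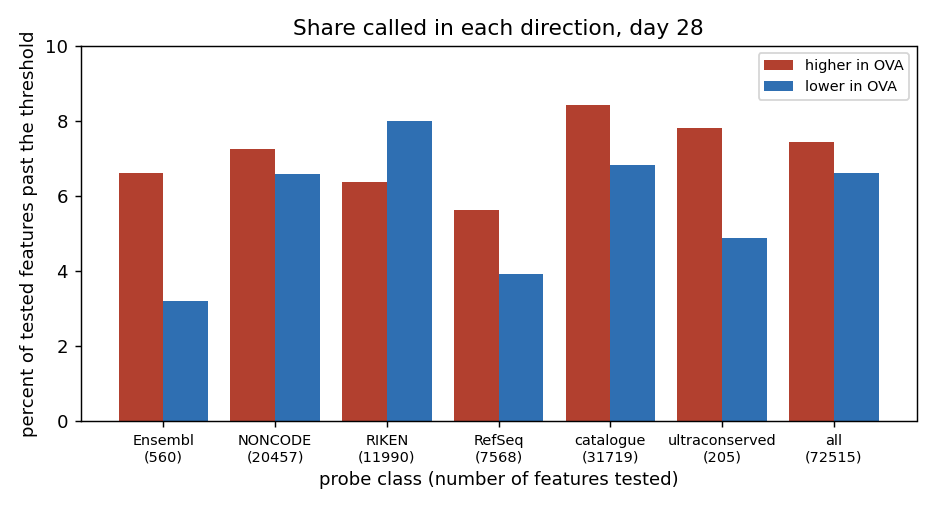
Percent of the tested features of each probe class that were called higher (red) or lower (blue) in OVA at day 28, with the number tested in brackets; 16 probes named from the literature, with no call, are not drawn. RIKEN clones have more lower than higher calls, and every other class has more higher calls.

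The largest differences of all fell on features without a gene name. NONMMUT064173 rose 5.38-fold, from controls at -2.85 and -3.12 to OVA arrays at -0.67, -0.51, -0.57 and -0.50 (adjusted p = 7.63e-05). NONMMUT029622, a brighter NONCODE transcript, rose 4.99-fold, from -0.80 and -0.71 to 1.50, 1.48, 1.65 and 1.63 (adjusted p = 6.21e-05). In both, the OVA arrays lay close together and far above the controls. The RIKEN clones D030074B08 and 4930402H05 were higher by 2.24 ± 0.35 and 2.06 ± 0.23, and the catalogue probes A_51_P398164 and A_51_P173384 by 2.18 ± 0.22 and 2.16 ± 0.29. Among RefSeq models XR_388831 and XR_886352 were higher by 2.04 ± 0.13 and 1.88 ± 0.19. The Ensembl transcripts ENSMUST00000174851 and ENSMUST00000187484 were higher by 3.13-fold and 2.27-fold. The ultraconserved elements uc.mouse.200 and uc.mouse.444 were higher by 2.52-fold and 2.5-fold. Of these 12 features, ENSMUST00000174851 lost its call without control 1 (adjusted p = 0.0526) and the others kept it without each day 28 array in turn.

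By the same rule, the lowest features without a gene name were weaker and leaned more on a single control. The catalogue probe A_55_P1959938 stood at -2.30 and -2.45 in controls and at -4.44, -4.06, -3.80 and -3.86 in OVA, 3.18-fold lower (adjusted p = 0.00228), and kept its call without each day 28 array. The controls of A_52_P707807 stood at 0.07 and -1.89 and those of the RIKEN clone C430010C20 at 0.39 and 2.14, each pair far apart, while their OVA arrays lay together, from -2.46 to -2.30 and from -0.10 to 0.02. Their calls (adjusted p = 0.0252 and 0.0273) were lost without the control furthest from OVA, control 1 for the first and control 2 for the second. NONMMUT045652, NONMMUT067608, XR_396740, uc.mouse.478, uc.mouse.122, ENSMUST00000160227 and ENSMUST00000162697 were lower by 1.55-fold to 2.28-fold. Without control 2, all of these 7 but XR_396740 and ENSMUST00000162697 lost their call (adjusted p of the lost calls in this group of features up to 0.186). Against all 4 controls the calls of A_55_P1959938, A_52_P707807, the C430010C20 clone, NONMMUT067608, uc.mouse.478 and uc.mouse.122 were lost.

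The gene lists, most of them of immune genes and cell types, gave few calls, because few of their members have a probe with a name. In 17 lists, 72 features could be placed, 33 by their own name and 39 as non-coding genes beside a listed coding gene (the nearest within 100 kb). Of the 72, 6 were higher and 5 lower, against 188 and 138 of the 3407 named features. The lists were chosen with earlier results of these data known and support nothing by themselves.

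Among non-coding RNAs studied in immune cells, 2 of 16 features were higher and none lower by limma (2 were lower at an unadjusted p under 0.05), with a median difference of 0.06 against 0.01 over all named features. The higher ones were the Dleu2 clone and Zeb2os, the antisense transcript at Zeb2, a transcription factor gene of myeloid, NK and plasmacytoid dendritic cells. Zeb2os stood at -2.11 and -1.85 in controls and at -1.15, -1.34, -0.97 and -1.11 in OVA (0.84 ± 0.17, adjusted p = 0.0102). Its call was lost without control 1. A RIKEN clone filed under Zeb2 itself, singled out with its value known, stood at 0.38 and 0.25 in controls and 0.17, 0.12, 0.41 and 0.32 in OVA, overlapping, with a difference of -0.06 ± 0.16 (adjusted p = 0.835). Morrbid, which controls the lifespan of eosinophils and other myeloid cells, stood at -0.03 ± 0.19. Ifngas1, which lies by the interferon-gamma gene, stood at 0.15 ± 0.20, and AW112010, a transcript of activated T cells and macrophages, at 0.06 ± 0.17. Neither these nor Norad, Snhg3, Snhg5, Meg3, Trp53cor1, Mir22hg, Mirt2 and the 2 clones of Mirt1 passed. Bach2os, opposite the lymphocyte repressor gene Bach2, had the lowest difference of the list, -0.44 ± 0.20, and did not pass (adjusted p = 0.157).

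Beside genes of the allergic response, 1 of 9 non-coding genes was higher and 1 lower, with a median of -0.22. Gm40775, beside the gene of the lymphocyte cytokine IL-22, which acts on epithelial cells, stood at -1.99 and -2.08 in controls and at -1.57, -1.48, -1.60 and -1.56 in OVA (adjusted p = 0.00927). Gm30989, beside Stat6, which relays the IL-4 and IL-13 signal, stood at -2.61 and -2.57 in controls and at -3.02, -3.05, -3.21 and -3.03 in OVA (adjusted p = 0.0353). Both differences were small, at 0.48 ± 0.09 and -0.49 ± 0.14, and both calls were lost without control 2. The call of Gm40775 was also lost when scaled by the spike-ins' median level. That of Gm30989 was lost in more settings, among them without control 1, with no filter on dim probes and with trend and robust fitting. The genes beside Il33, Il2ra, Maf, Crlf2, Arg1, Pparg and Bcl6 did not pass.

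Beside B cell genes, a pair of non-coding genes next to Fcrl1, an Fc receptor-like gene of B cells, went in opposite directions. Gm40084 was higher by 0.41 ± 0.11 and Gm31940 lower, at -0.48 ± 0.14 (adjusted p = 0.0331 and 0.0392); the other 3 of 5 members, beside Pax5 and Bach2, did not pass. Gm39266, beside Irf8, a factor gene of dendritic cells and of interferon responses, was the one of 4 features beside interferon genes that passed. It stood at -1.41 and -1.10 in controls and at -0.66, -0.65, -0.54 and -0.28 in OVA (0.72 ± 0.20, adjusted p = 0.0336). Of 4 features beside dendritic cell genes it was the one that was higher, and Slc2a4rg-ps, described above, was lower by a like amount (-0.70); those beside Id2 and Siglech did not pass. Of 4 features at or beside myeloid genes, Zeb2os was higher and Prr33 lower, and those of Zeb2 and beside Cebpa did not pass. Of 4 features beside erythroid genes, whose median was -0.03, the one that passed was Gm39269, beside the cofactor gene Zfpm1, higher by 0.39 ± 0.10 (adjusted p = 0.0289). A non-coding RefSeq transcript of Mx2, a gene of the interferon list, differed by -0.03 ± 0.18 (adjusted p = 0.923). Of the 10 called features named here from these lists, Snhg7 not counted, 7 lost the call without control 1 and 7 without control 2. None of 5 features beside T cell genes, 4 beside proliferation genes, 10 of imprinted genes, 2 beside pancreas and fat genes, 1 beside an NK gene, 1 beside a granulocyte gene or 3 of stroma passed by limma; 3 of these 26 had an unadjusted p under 0.05. Plasma cell and megakaryocyte genes had no named feature. Among 7 host genes of small nucleolar RNAs, Snhg7 was lower, at -0.37 ± 0.11 (adjusted p = 0.0436); it was singled out with its value known. Its call was lost in 15 of 26 alternative settings, among them without control 1 and without control 2.

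Different probes of one gene did not always give the same direction. For 26 called features another probe of the same gene was measured, in 27 pairs that include RefSeq probes left out of the fit, of which 18 had the same sign and 9 the opposite. Pairs of a RefSeq and a RIKEN probe had the same sign in 8 of 10 cases, and pairs of the same kind of probe in 10 of 17. Dleu2 was among the opposite ones, and the clones of Bclaf1 were among the same.

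At day 14 the same comparison gave 49 called features (0.0676%), of which 8 were also called at day 28. The day 14 arrays differed in quality from those of day 28. Their 75th percentile was 319.6 and 368.1 units in controls and 266.7 to 287.5 in OVA. Spots well above background made up 72.4% and 80.0% in controls and 57.5% to 75.8% in OVA. How much this bears on the counts was not tested. The days share no arrays, but the OVA groups lay on different slides. The difference between the OVA effects of both days was tested in the same limma fit and passed for 2138 features (2.95%). Of the features called at day 28, 1851 passed it, 1850 of them in the direction of the day 28 difference. The test holds the same day 28 values that made the calls, so this agreement in direction follows largely from the selection. It supports nothing by itself, and the same holds for the genes below, which were chosen for their day 28 values. Among the 10 higher genes with an ordinary symbol it passed for Dynlrb1, Dleu2, C1galt1, Rnf139 and Fra10ac1, and among the lower ones for Pik3cd and Cry2. The C1galt1 clone differed by -0.16 ± 0.16 at day 14 and by 1.18 ± 0.16 at day 28, a change of 1.33 (adjusted p = 0.02). The Dleu2 clone differed by -0.02 ± 0.17 at day 14, a change of 1.20 (adjusted p = 0.0334). The Pik3cd clone turned from 0.34 ± 0.11 at day 14 to -0.73 ± 0.11 (adjusted p of the change = 0.0124). None of these 3 clones was called at day 14. For Rnf207, Top2b, Rasal3 and the remaining genes the change between days did not pass, so a different effect on the days was not shown for them. For the change between days, 0 features passed by limma once array position was a block, and 11912 had an unadjusted p under 0.05. On their slide the controls of day 14 lay at positions 1 and 2 and those of day 28 at positions 3 and 4. Each OVA group filled positions 1 to 4, so position and day cannot be told apart among the controls.

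**Figure D4:**
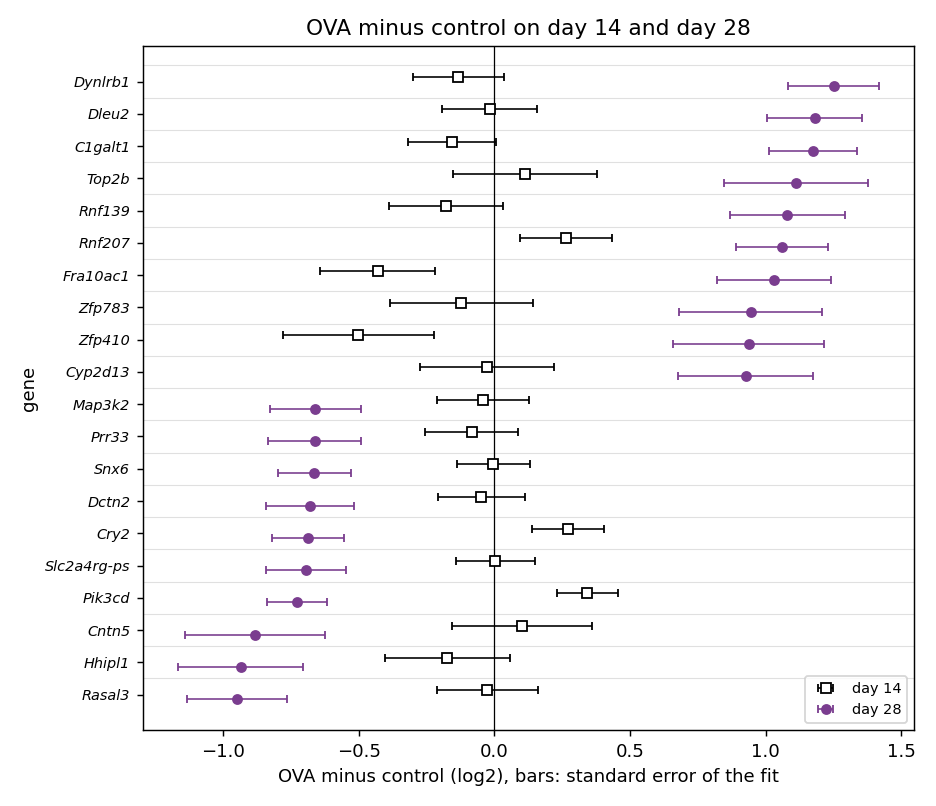
OVA minus control (log2, with the standard error of the fit) at day 14 (open squares) and day 28 (filled circles) for the 20 genes with an ordinary symbol. At day 14 the genes scatter on both sides of 0; they were chosen for their day 28 values.

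How many features were called depended strongly on single arrays. Without control 1 of day 28 the count was 3353, and without control 2 it was 1976, against 10191 with both. Without OVA 1, 2, 3 or 4 it was 5764, 5829, 6080 and 9298. A core of 1082 features was called in each of these 6 fits, 907 of them higher and 175 lower in OVA. It held 465 higher and 70 lower catalogue probes, 231 and 49 NONCODE transcripts, 136 and 42 RIKEN clones, 65 and 13 RefSeq transcripts, and 6 ultraconserved elements, all higher.

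The balance of directions depended on the scaling. As reported, 52.9% of calls were higher. Scaled by the median deviation of the spike-ins, 75.3% of 5722 calls were higher, whereas scaled by the spike-ins' median level, 33.2% of 7055 were. The second of these, chosen after seeing the data, moved the median of all features from -0.03 to -0.14. No called feature named here changed sign under any scaling tried, and the whole set of OVA arrays was brighter before scaling, as given above. Whether more transcripts rose than fell is therefore not settled by these arrays.

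**Figure D5:**
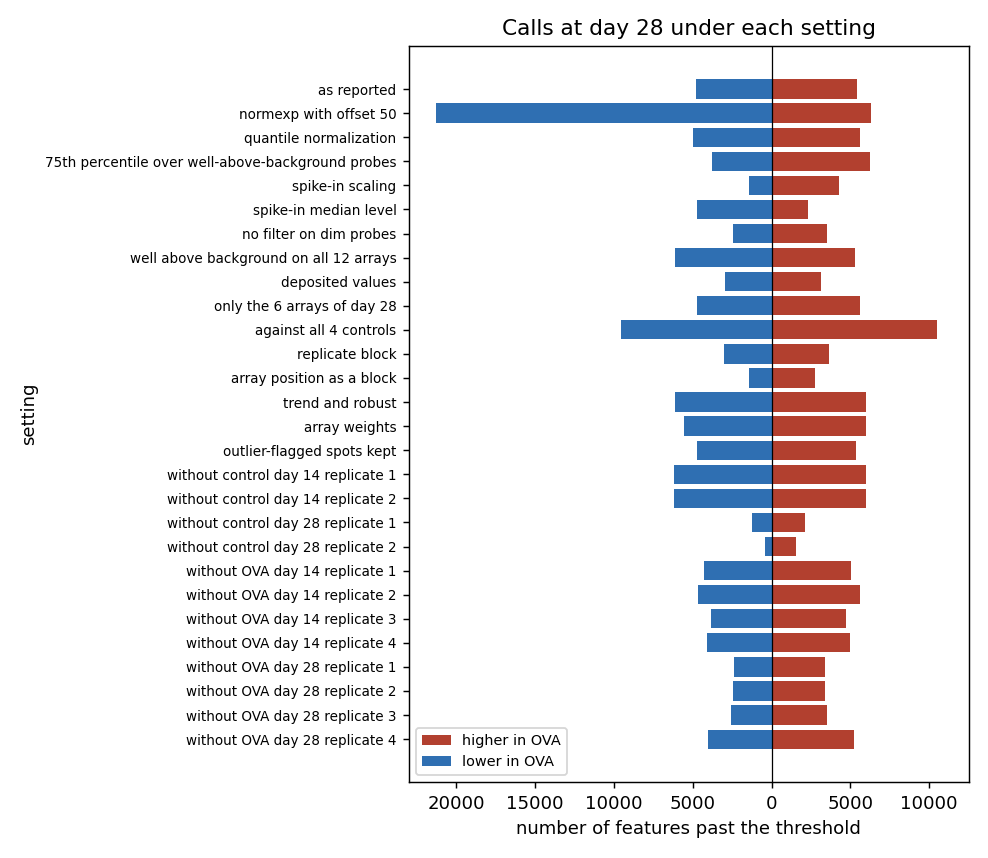
Number of features called higher (red, to the right) and lower (blue, to the left) in OVA at day 28 under each setting. Counts fall most without control day 28 replicate 1 (3353) or 2 (1976), and lower calls exceed higher ones by far with normexp background correction (21310 against 6341).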

How the data were processed

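Spleen RNA of day 28 was compared between 4 OVA and 2 control arrays, single-colour Agilent arrays of 97836 probes. The deposited scanner files give spot intensity on a linear scale, background-corrected by the scanner program (per the file headers, Agilent Feature Extraction 11.5.1.1); the submitters' processing notes name version 9.1. The authors also deposited log2 values for 39027 catalogue probes, which differ from the values used here by 1 constant per array.

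The processed intensity was put on a log2 scale, less the 75th percentile of each array's non-control spots. Outlier-flagged spots were left out and spots of a probe averaged. Testing a feature required that, in 1 or more of the 4 groups, all arrays had its probe well above background. Names came from RefSeq accessions or RIKEN clone numbers in a RefSeq table (GRCm38.p6). In the fit 1 RefSeq probe was kept per gene, that of highest mean; pairs of probes of a gene use the others too. All 12 arrays entered 1 limma fit (limma 3.58.1, R 4.3.3) of 4 groups with 8 residual degrees of freedom. In simulated data 102 features were changed 2-fold and 98 were changed 4-fold among 72515, with independent noise and no difference between slides. There the fit recovered 63.7% of 2-fold and 92.9% of 4-fold changes at day 28, with 9 unchanged features called. The real comparison has far more calls and sets slide against slide, so these rates cannot be carried over to it. The number of arrays, above all the 2 controls, limits the precision.

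Genes were named by rule among called features well above background on all 6 arrays and without overlap. The 10 highest and 10 lowest differences were taken of ordinary symbols, 5 and 5 of clone-type symbols, and 2 and 2 of each probe class, with members of the gene lists. Members and lists were chosen with earlier results of these data known. Replicate numbers were not taken to pair the arrays. Alternatives covered background, scaling, filters, controls, blocks, spread and each array left out. Tables and plots used Python with pandas and matplotlib.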

Additional observations from a re-analysis of the deposited data

Results flagged for a closer look

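In 6 of 89 groups of 4 OVA or day 14 arrays tested, 1 array stood apart from the other 3 by Dixon's criterion at the 95% level; chance gives about 1 in 20. OVA 1 was high for NONMMUT067608, at -3.81, and low for XR_388831, at 0.18. OVA 3 was low for Gm30989, at -3.21. OVA 4 was low for Zfp783, at -3.15, and high for the RefSeq probe of Dleu2, at -3.33, and for the Mef2c clone, at -1.21. In Zfp783 and XR_388831 the array apart was the OVA array nearest to the controls, and so was OVA 1 in NONMMUT067608. What set these arrays apart was not tested.

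For 31 of the 86 features given by name, the OVA effect differed between day 28 and day 14 by the interaction term of the limma fit, against 2.95% of all features. Most of the 86 were chosen for their day 28 differences, which the term uses again. A larger share among them is therefore no result about these features. Each value below is the day 28 difference minus the day 14 difference on the log2 scale, and the slides of the OVA groups cannot be told apart from the days. Among ordinary symbols it was 1.46 for the Fra10ac1 clone, 1.38 for Dynlrb1, 1.33 for C1galt1, 1.26 for Rnf139, 1.20 for Zeb2os, 1.20 for the Dleu2 clone and 0.90 for Mef2c. It was negative for Pik3cd (-1.07), Cry2 (-0.96), Xiap (-0.91), Zfp36l1 (-0.86) and Stk38 (-0.86). Among clone-type symbols it was 1.52 for Gm36007, 1.51 for Gm35430, 1.16 for 0610039K10Rik and -1.07 for Gm35715.

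The largest values fell on features without a gene name. The catalogue probes A_51_P173384 and A_51_P398164 had 2.91 and 2.58, and A_55_P1959938 had -1.88. The RIKEN clones 4930402H05 and D030074B08 had 2.40 and 2.10. NONMMUT029622 and NONMMUT064173 had 2.27 and 1.76. The Ensembl transcripts ENSMUST00000174851, ENSMUST00000187484 and ENSMUST00000162697 had 1.97, 1.32 and -0.64. The RefSeq models XR_388831, XR_886352 and XR_396740 had 1.76, 1.72 and -1.18, and the ultraconserved elements uc.mouse.200 and uc.mouse.444 had 1.38 and 1.32.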

How the results depend on the processing

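The count of 10191 calls at day 28 stayed within 1.5 times under quantile normalization, the percentile over bright probes, the spike-in median level, only bright probes, only the 6 arrays of day 28, trend and robust fitting, array weights and outlier-flagged spots kept. It was 27651 with normexp, 5722 with spike-in scaling, 5943 with no filter on dim probes, 20023 against all 4 controls, 6652 with the replicate block and 4165 with array position as a block. With the deposited values, catalogue probes alone, it was 6116, and all 4831 catalogue calls were among them. Leaving out 1 array gave 1976 to 12185. Higher calls made up 22.9% with normexp, 75.3% with spike-in scaling, 33.2% with the spike-in median level, 66.1% with array position as a block, 63.6% without control 1 and 77.8% without control 2 of day 28, against 52.9%. The causes were not tested.

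The count of 2138 for the change between days was 22051 with normexp, 3384 with spike-in scaling, 870 with the spike-in median level, 329 with no filter, 3951 with only bright probes, 391 with the replicate block, 0 with array position as a block (11912 at an unadjusted p under 0.05), 4278 with trend and robust fitting and 495 with array weights. Leaving out 1 array gave 282 to 5995. Replicate numbers were not taken to pair the arrays, as the labels state no pairing. Deviations of same-numbered arrays correlated at -0.18 and 0.16. The deviations of 2 controls mirror each other, so these values cannot settle pairing. Of 70 called features given by name, 25 kept the call under every alternative that tested them, and none changed sign. Dim probes limit what can be called, and 2 controls limit every error here.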

Other observations

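RIKEN clones filed under further genes of lymphocyte signalling, survival and growth were also called at day 28. They were picked after their values were seen, fall outside the rule for named genes and support no theme; 15.0% of such clones of coding genes were called. Ubash3a encodes a brake on T cell receptor signals, and its clone stood at -0.14 and 0.09 in controls and at -0.68, -0.59, -0.81 and -0.46 in OVA, 1.53-fold lower without overlap (adjusted p = 0.0178, limma). Zfp36l1 encodes a protein that speeds mRNA decay in developing lymphocytes, and its clone stood at 2.49 and 2.79 in controls and at 2.07, 2.10, 2.10 and 2.04 in OVA (1.47-fold lower, adjusted p = 0.013). The clones of the kinase genes Stk38 and Cdk2, of Jakmip1, whose product binds Janus kinases, and of Xiap, an inhibitor of caspases, were lower by 1.56-fold, 1.47-fold, 1.53-fold and 1.39-fold (adjusted p = 0.00606, 0.0421, 0.0183 and 0.0177). Without control 2 of day 28 all 6 calls were lost, and the clones of Cdk2, Jakmip1 and Xiap lost theirs without control 1 too.

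Higher in OVA was a clone of Mef2c, a transcription factor gene of B cells and muscle, with controls at -2.15 and -1.99 and OVA arrays at -1.38, -1.39, -1.39 and -1.21 (1.65-fold, adjusted p = 0.0055). The clone of Cltc, the clathrin heavy chain gene of endocytosis, stood at -0.64 and -0.83 in controls and at -0.05, 0.04, 0.03 and 0.02 in OVA (1.67-fold, adjusted p = 0.00769). Khdrbs1 and Bclaf1 encode RNA-binding and splicing proteins. A RefSeq probe of Khdrbs1 was higher by 0.46 ± 0.12 (SE, adjusted p = 0.0319). Of the clones of Bclaf1, one was higher by 0.57 ± 0.14 (adjusted p = 0.0231), and the other stood at 0.60 ± 0.22 and did not pass (adjusted p = 0.094). The call of Mef2c was lost without control 1, that of Cltc without control 2, and those of Khdrbs1 and Bclaf1 without either.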
